A study of Homo sapiens with 12 samples.

Results

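Glycolysis and pyruvate fate genes were followed in 2 human lung cancer lines given the histone deacetylase inhibitor SAHA (vorinostat). They are 36 genes of 58302 in the deposited tables, taken by symbol, and each matched exactly 1 row. The set runs from glucose entry to the choice between lactate export and mitochondrial oxidation of pyruvate. The groups are H1299 with SAHA, H1299 with the vehicle DMSO, H1703 with SAHA and H1703 with DMSO, each with 3 libraries. Both are established non-small-cell lung cancer lines, and exposure lasted 24 h. The treatment protocol lists SAHA at 0, 2.5, 10 or 40 µM and DMSO at 0.1%, without saying which dose the sequenced cells received or whether both lines received the same one. Whether replicates came from separate cultures is not stated, and the spread behind each p-value may therefore be technical.

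In glycolysis, hexokinase, phosphofructokinase and pyruvate kinase catalyse the irreversible steps, and most steps can be carried out by more than 1 isozyme encoded by separate genes. Pyruvate is then reduced to lactate by lactate dehydrogenase and exported by monocarboxylate transporters, or enters mitochondria through the carrier MPC1/MPC2 and is oxidised by the pyruvate dehydrogenase complex. That complex is switched off when pyruvate dehydrogenase kinases phosphorylate it and on again by pyruvate dehydrogenase phosphatases. Many cancer cells are known for high glucose use and lactate release even with oxygen present. SAHA blocks zinc-dependent histone deacetylases, which raises histone acetylation.

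Total counts ran from 14.4M to 19.4M per library, whereas a median depth of 55M reads was declared for the series. Mitochondrially encoded genes took 4.10 ± 0.12% of counts with SAHA and 2.12 ± 0.14% with DMSO in H1299 (SD, n = 3 each), and 9.57 ± 1.19% with SAHA and 5.88 ± 0.42% with DMSO in H1703. The labels call both lines epithelial. Summed over 9 epithelial markers, levels were 1364 to 1588 counts-per-million (CPM) with SAHA and 594 to 617 CPM with DMSO in H1299, where CDH1 was at 0 with DMSO. KRT8 (630.8 ± 44 CPM with SAHA and 210.1 ± 3.6 with DMSO) and KRT18 (835.0 ± 72 and 383.0 ± 9.0) held most of these H1299 sums. EPCAM, CDH1, KRT19, CLDN7 and ESRP1 averaged at most 0.86 CPM in either H1299 group. In H1703 the same sums were 2967 to 3429 CPM with SAHA and 3983 to 4440.2 CPM with DMSO. The lower sum with SAHA there does not describe most of the list, as 4 of 8 tested markers were higher and 2 lower. KRT7 had 613.3 ± 82 CPM with SAHA and 2182.5 ± 120.3 CPM with DMSO, whereas KRT19 had 308.9 ± 32 and 15.9 ± 1.9 CPM. The 8 lymphoid markers summed to at most 1.61 CPM in any library, and MS4A1 was at 0 in every group. Markers of other cell types also differed between SAHA and DMSO. The 6 fibroblast markers summed to 38.3 to 51.1 CPM with SAHA and 1.36 to 2.89 CPM with DMSO in H1299, and to 184.6 to 210.6 CPM with SAHA and 87.9 to 107.2 CPM with DMSO in H1703. THY1 was at 0 with SAHA and LUM at 0 with DMSO in H1299. The 5 endothelial markers summed to 15.7 to 20.1 CPM with SAHA and 1.54 to 1.81 CPM with DMSO in H1299, where CDH5 and TEK were at 0 with DMSO, and to 7.73 to 9.99 CPM with SAHA and 0.894 to 1.23 CPM with DMSO in H1703. The 7 myeloid markers overlapped in H1299, at 24.3 to 28.2 CPM with SAHA and 25.0 to 45.6 CPM with DMSO, but in H1703 they summed to 86.7 to 96.9 CPM with SAHA and 29.9 to 49.6 CPM with DMSO. FCGR3A was at 0 with DMSO in both lines and AIF1 in H1703. The part of these differences in the results below was not tested, except that leaving out the mitochondrially encoded genes is given as an alternative setting. The samples are established cell lines, so these sums do not by themselves show that other cell types were present. In bulk RNA, fewer cells expressing a gene and less of its RNA per cell cannot be told apart.

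The promoters of 4 members on which the results below turn are shown here, because they include the 2 enolase genes that moved in opposite directions, the aldolase gene with the largest rise, and the pyruvate carrier subunit with the larger rise. Each line gives the 250 bases before the RefSeq transcription start (GRCh38.p14), 5′ to 3′ on the gene's strand. Capitals mark ACGTG or its complement CACGT, a form of the core letters of the hypoxia response element, and the GC box letters GGGCGG or CCGCCC. ENO2 lies at chr12:6914330-6914579 (+), ENO1 at chr1:8878687-8878936 (-), ALDOC at chr17:28576896-28577145 (-) and MPC1 at chr6:166382941-166383190 (-).
ENO2: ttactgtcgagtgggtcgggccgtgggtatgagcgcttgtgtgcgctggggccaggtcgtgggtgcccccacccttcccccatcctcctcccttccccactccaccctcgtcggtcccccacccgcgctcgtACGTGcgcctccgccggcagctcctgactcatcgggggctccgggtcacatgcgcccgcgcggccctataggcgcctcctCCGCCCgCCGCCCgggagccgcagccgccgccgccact
ENO1: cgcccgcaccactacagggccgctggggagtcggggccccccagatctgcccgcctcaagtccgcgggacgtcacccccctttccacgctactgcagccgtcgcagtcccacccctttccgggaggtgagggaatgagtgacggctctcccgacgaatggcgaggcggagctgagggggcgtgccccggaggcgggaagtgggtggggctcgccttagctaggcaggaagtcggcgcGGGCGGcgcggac
ALDOC: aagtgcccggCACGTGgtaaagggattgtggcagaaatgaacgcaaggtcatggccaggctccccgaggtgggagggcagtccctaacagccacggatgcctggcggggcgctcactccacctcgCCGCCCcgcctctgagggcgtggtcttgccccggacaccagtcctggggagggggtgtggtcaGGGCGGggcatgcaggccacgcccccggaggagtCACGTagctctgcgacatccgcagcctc
MPC1: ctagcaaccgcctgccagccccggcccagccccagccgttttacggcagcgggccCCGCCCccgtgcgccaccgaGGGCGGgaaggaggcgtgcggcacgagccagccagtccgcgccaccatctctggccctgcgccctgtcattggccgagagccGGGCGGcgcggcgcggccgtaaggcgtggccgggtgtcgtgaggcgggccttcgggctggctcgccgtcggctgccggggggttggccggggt

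The ENO2 window held ACGTG 118 bases before the start, and in the ALDOC window the nearest match lay 28 bases before it. The ENO1 and MPC1 windows held neither ACGTG nor CACGT. Another form of the core, GCGTG, was not searched for and is not in the counts below. It can be read in lower case in the ENO1, MPC1 and ALDOC windows. Over all members, 32 of 36 genes matched the promoter table by symbol, with 64 annotated starts. ACGTG or CACGT occurred in 32.8% of these starts, against 18.5% of 35116 starts of all genes and 20.2% of 21012 starts of protein-coding genes. GGGCGG or CCGCCC occurred in 64.1% of the members' starts, against 42.6% of all starts and 54.4% of protein-coding starts. By response, ACGTG or CACGT was in 4 of 24 starts of members higher with SAHA in both lines. It was in 5 of 11 starts of members lower in both lines. Each group rests on 9 matched genes, and of the 24 starts HK1 has 7 and SLC16A3 has 5. Both motifs were searched on both strands. ACGTG and its complement overlap within CACGTG, as in ALDOC, and ACGTG can share a G with a following GGGCGG. The counts describe letters only.

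With SAHA, members changed in both directions in both lines. In some steps the genes moved apart, as for ENO1 and ENO2. In others they moved together, as for LDHA with LDHB and for the carrier subunits MPC1 with MPC2. In H1299, 13 of 34 tested members were higher and 11 lower at an adjusted p below 0.05 (edgeR quasi-likelihood test, Benjamini-Hochberg over all genes tested), and 10 did not pass. That is 70.6% of those tested, against 63.8% of all genes in H1299 (33.3% higher and 30.4% lower). In H1703, 20 of 35 tested members were higher and 10 lower, which is 85.7% against 67.4% of all genes (34.7% higher and 32.6% lower), and 5 did not pass. PFKFB1 had too few counts to be tested in either line, and ALDOC too few in H1299. Changes of 2-fold or more were called for 5 higher and 1 lower of the 34 tested members in H1299, a smaller share than the 30.4% of all genes. In H1703 they were called for 8 higher and 2 lower of the 35 tested, a smaller share than the 34.4% of all genes. The median log2 fold change of the members was 0.03 in H1299 and 0.32 in H1703, beside 0.02 over all genes in each line. The SAHA and DMSO libraries did not overlap for 25 of the 34 tested members in H1299, 73.5% against 69.4% of all genes tested, and for 32 of 35 in H1703, 91.4% against 72.2%.

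Higher with SAHA in both lines were 11 members, namely SLC2A3, HK1, PFKFB4, ENO2, SLC16A3, PDK1, PDK2, PDK4, PDP1, MPC1 and MPC2. Lower in both were 9 members, namely GPI, PFKL, TPI1, GAPDH, PGAM1, ENO1, LDHA, LDHB and PDHB. Of the 34 members tested in both lines these are 32.4% and 26.5%, against 23.0% of 15654 genes tested in both lines that were higher in both and 21.9% that were lower in both. PDK1 and PDHB are in these lists through calls, in H1703 and H1299, that were lost under some of the alternatives run. The members' summed share of all counts was 1.60 to 1.78% with SAHA and 1.98 to 2.09% with DMSO in H1299, and 1.75 to 1.78% with SAHA and 1.97 to 2.03% with DMSO in H1703. The groups did not overlap in either line, and they did not overlap when the mitochondrially encoded genes were left out of the total. This share is weighted to the most abundant members and does not describe most of the set. GAPDH averaged 4532.3 CPM with SAHA and 6181.3 with DMSO in H1299, and 3428.2 and 5252.6 in H1703. ENO1 averaged 2384.7 and 3781.5 CPM in H1299, and 1424.8 and 3270.4 in H1703. PKM rose in H1703, and in each line more members were called higher than lower.

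**Figure D1:**
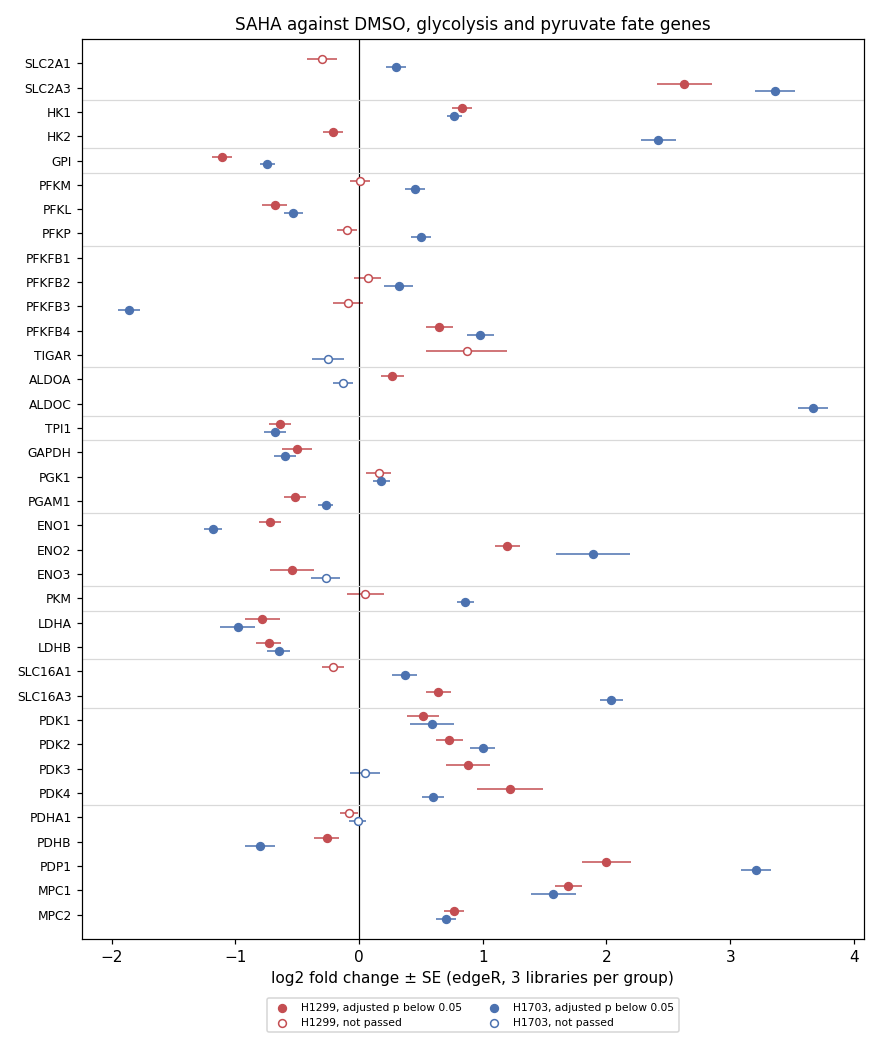
Log2 fold change of SAHA over DMSO (x axis) with its standard error for each member (y axis, in pathway order, lines between steps), in H1299 (red) and H1703 (blue), 3 libraries per group. Filled points passed an adjusted p below 0.05 in edgeR; SLC2A3, ENO2, PDP1 and MPC1 lie right of 1 in both lines, while GPI, ENO1 and LDHA lie left of 0 in both.

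The transcript of the glucose transporter GLUT3 rose in both lines. SLC2A3, which encodes this high-affinity carrier known from neurons (chr12:7919230-7936275 in the tables' GRCh38 coordinates), had 369.5, 222.4 and 218.0 CPM with SAHA and 43.8, 42.3 and 40.0 CPM with DMSO in H1299. In H1703 it had 166.7, 236.3 and 254.8 CPM with SAHA and 22.3, 21.6 and 21.1 CPM with DMSO. Every SAHA library was above every DMSO library, with a log2 fold change of 2.63 ± 0.22 in H1299 (SE, adjusted p = 6.6e-05) and 3.36 ± 0.16 in H1703 (adjusted p = 5.83e-07). The first H1299 library with SAHA stood above the other two. SLC2A3 has a near-identical neighbour, SLC2A14, which averaged 6.38 ± 0.89 CPM with SAHA and 0.979 ± 0.08 CPM with DMSO in H1299, and it is not stated how reads shared by the pair were counted.

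SLC2A1, which encodes the widespread basal transporter GLUT1, had 77.4, 71.6 and 101.2 CPM with SAHA and 98.5, 102.0 and 96.9 CPM with DMSO in H1299. These groups overlapped, and the change of -0.30 ± 0.12 did not pass (adjusted p = 0.0549), though with the replicate number as a block it did (-0.32, adjusted p = 0.0496). The H1703 libraries had 130.1, 122.3 and 119.0 CPM with SAHA and 95.7, 106.7 and 102.5 CPM with DMSO, a rise of 0.30 ± 0.08 (adjusted p = 0.0067). The log2 ratio of GLUT3 to GLUT1 was therefore higher with SAHA by 2.89 in H1299 and by 3.0 in H1703.

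Hexokinase, which traps glucose as glucose 6-phosphate, behaved differently by isozyme and line. HK1, the housekeeping isozyme, had 184.3, 203.2 and 201.3 CPM with SAHA and 104.4, 108.8 and 104.8 CPM with DMSO in H1299, and 296.6, 296.0 and 288.4 CPM with SAHA and 173.0, 176.5 and 175.1 CPM with DMSO in H1703. It rose alike, by 0.83 ± 0.08 in H1299 (adjusted p = 1.57e-05) and by 0.77 ± 0.06 in H1703 (adjusted p = 5.26e-06). HK2, the insulin- and hypoxia-responsive isozyme found in many tumours, had 18.3, 18.4 and 19.8 CPM with SAHA and 4.02, 3.33 and 3.3 CPM with DMSO in H1703, a rise of 2.42 ± 0.14 (adjusted p = 4.66e-07). In H1299 it had 48.1, 49.2 and 48.6 CPM with SAHA and 55.2, 53.3 and 54.4 CPM with DMSO. That difference of -0.21 ± 0.08 was called (adjusted p = 0.0428), but not with the replicate block (adjusted p = 0.0993) nor without any single library (adjusted p = 0.0565 to 0.0926). The SAHA effect on HK2 was higher in H1703 by 2.56 ± 0.14 (adjusted p = 1.13e-08), while HK2 stayed at lower CPM in H1703 with SAHA than in H1299 with DMSO.

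GPI, which interconverts glucose 6-phosphate and fructose 6-phosphate, had 338.7, 377.2 and 366.1 CPM with SAHA and 754.1, 777.0 and 720.3 CPM with DMSO in H1299, and 555.1, 589.3 and 578.9 CPM with SAHA and 956.9, 973.5 and 976.6 CPM with DMSO in H1703. The fall was -1.11 ± 0.08 in H1299 (adjusted p = 3.94e-06) and -0.74 ± 0.06 in H1703 (adjusted p = 6.21e-06). It was the only member of the set that fell 2-fold or more in H1299.

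The 3 phosphofructokinase subunits, which form the committed step, did not move together. PFKL, the liver-type subunit, fell by 0.68 ± 0.10 in H1299 (adjusted p = 0.000233) and by 0.53 ± 0.08 in H1703 (adjusted p = 0.00039). PFKP, the platelet-type subunit and the most abundant of the 3, had 242.4, 265.0 and 284.7 CPM with SAHA and 274.2, 283.1 and 260.0 CPM with DMSO in H1299, where the groups overlapped. In H1703 it had 675.9, 656.5 and 603.9 CPM with SAHA and 442.2, 452.5 and 495.9 CPM with DMSO, a rise of 0.50 ± 0.08 (adjusted p = 0.00031). PFKM, the muscle-type subunit, rose in H1703 (0.45 ± 0.08, adjusted p = 0.00105) and had 0.01 ± 0.08 in H1299 (adjusted p = 0.88).

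Fructose 2,6-bisphosphate, the strongest activator of phosphofructokinase, is made and degraded by the bifunctional PFKFB enzymes. PFKFB3, the isoform with the highest kinase activity relative to its phosphatase activity, had 82.3, 73.7 and 71.2 CPM with SAHA and 254.9, 293.3 and 289.6 CPM with DMSO in H1703. It fell by 1.86 ± 0.09 (adjusted p = 1.63e-07). In H1299 it had 20.1, 25.7 and 24.0 CPM with SAHA and 22.2, 25.7 and 23.6 CPM with DMSO, overlapping groups (-0.09 ± 0.12, adjusted p = 0.549). PFKFB4 rose in both lines, by 0.65 ± 0.11 in H1299 (adjusted p = 0.000867) and by 0.98 ± 0.11 in H1703 (adjusted p = 3.81e-05). PFKFB2 rose in H1703 alone by the test (0.32 ± 0.12, adjusted p = 0.0351), though the difference between lines did not pass (adjusted p = 0.42). The H1703 call was kept in 6 of 12 alternatives and was lost with DESeq2 (adjusted p = 0.0612), without the low-count filter (0.0626) and without any of 4 single libraries (0.0803 to 0.115). PFKFB1 stayed between 0 and 0.866 CPM in all 12 libraries.

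TIGAR, whose product lowers fructose 2,6-bisphosphate, had 70.7, 65.5 and 47.7 CPM with SAHA and 38.1, 18.2 and 40.7 CPM with DMSO in H1299. Its second DMSO library was low. The change of 0.87 ± 0.33 did not pass (adjusted p = 0.0625), and without that library it was 0.56 and passed (adjusted p = 0.0228). The H1703 libraries had 43.6, 42.1 and 30.9 CPM with SAHA and 47.2, 45.0 and 47.9 CPM with DMSO (-0.25 ± 0.13, adjusted p = 0.117).

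Aldolase, which splits fructose 1,6-bisphosphate, gave the largest rise among the members in H1703. ALDOC, the isozyme known from brain (chr17:28573115-28577264), had 58.2, 52.4 and 52.5 CPM with SAHA and 4.60, 4.49 and 3.85 CPM with DMSO in H1703, a rise of 3.67 ± 0.12 (adjusted p = 1.62e-08), or 12.7-fold. In H1299 it stayed at 0, 0.254 and 0.176 CPM with SAHA and 0.604, 0.532 and 0.849 CPM with DMSO. ALDOA, the ubiquitous isozyme, had 506.6, 593.7 and 577.6 CPM with SAHA and 446.2, 477.6 and 417.7 CPM with DMSO in H1299 (0.27 ± 0.09, adjusted p = 0.0282). That call was lost without any of 4 libraries, with adjusted p of 0.0722 to 0.146. In H1703 ALDOA had 611.0, 547.6 and 549.1 CPM with SAHA and 632.0, 672.6 and 583.5 CPM with DMSO (-0.13 ± 0.08, adjusted p = 0.189).

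From the triose phosphates to 2-phosphoglycerate, 3 of 4 genes fell in both lines. TPI1, the triose phosphate isomerase gene, had 555.9, 593.8 and 662.5 CPM with SAHA and 858.5, 927.0 and 928.7 CPM with DMSO in H1299 (-0.64 ± 0.09, adjusted p = 0.000226). In H1703 it had 617.4, 695.7 and 575.5 CPM with SAHA and 1093, 1049 and 927.7 CPM with DMSO (-0.68 ± 0.09, adjusted p = 0.00012). GAPDH, the dehydrogenase often used as a loading control, had 3859.7, 4635.5 and 5101.6 CPM with SAHA and 6553.3, 6508.4 and 5482.3 CPM with DMSO in H1299 (-0.50 ± 0.12, adjusted p = 0.00559). The H1703 libraries had 3137.9, 3355.9 and 3790.9 CPM with SAHA and 5082.0, 5717.4 and 4958.3 CPM with DMSO (-0.60 ± 0.09, adjusted p = 0.000273). PGAM1, the mutase gene, fell by 0.52 ± 0.09 in H1299 (adjusted p = 0.000793) and by 0.27 ± 0.06 in H1703 (adjusted p = 0.00395). PGK1, the first ATP-forming enzyme, stood apart with 0.16 ± 0.10 in H1299 (adjusted p = 0.168) and 0.18 ± 0.07 in H1703 (adjusted p = 0.0399, a call kept in 4 of 12 alternatives and lost with the replicate block at 0.0531). Processed pseudogenes of TPI1 held counts equal to 8.01 to 11.9% of those of TPI1 in the 4 groups. The 62 GAPDH pseudogenes held 1.99 to 2.86% of those of GAPDH. It is not stated how reads shared with these copies were counted, so both levels are uncertain by an amount these percentages do not bound.

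The enolase genes moved in opposite directions. ENO1, which encodes the ubiquitous alpha-enolase, had 2258.0, 2346.1 and 2549.9 CPM with SAHA and 3749.2, 3970.4 and 3624.9 CPM with DMSO in H1299. In H1703 it had 1377.3, 1457.8 and 1439.3 CPM with SAHA and 3181.5, 3492.1 and 3137.5 CPM with DMSO. The fall was -0.72 ± 0.09 in H1299 (adjusted p = 8.56e-05) and -1.18 ± 0.07 in H1703 (adjusted p = 5.78e-07). ENO2, which encodes the neuron-specific gamma-enolase (chr12:6913745-6923698), had 92.4, 96.3 and 102.4 CPM with SAHA and 36.5, 44 and 41.6 CPM with DMSO in H1299, and 101.0, 189.8 and 169.0 CPM with SAHA and 46.9, 30.7 and 47.9 CPM with DMSO in H1703. It rose by 1.20 ± 0.10 in H1299 (adjusted p = 7.58e-06) and by 1.89 ± 0.30 in H1703 (adjusted p = 0.00265), where the first SAHA library was the lowest of its group. ENO3, the muscle enolase gene, stayed at 2.60 to 10.7 CPM, and its fall in H1299 (-0.54 ± 0.18, adjusted p = 0.0271) was kept in 5 of 12 alternatives and lost with the replicate block (adjusted p = 0.0632). ENO3 overlaps the exons of PFN1 on the opposite strand, which averaged 338.6 CPM with SAHA and 1138.4 CPM with DMSO in H1299, so reads of the pair may be mixed.

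PKM, whose transcript is spliced to pyruvate kinase M1 or M2 forms that gene-level counts do not separate, had 7605.8, 7317.8 and 7377.1 CPM with SAHA and 4170.5, 3858.7 and 4426.9 CPM with DMSO in H1703. It rose by 0.86 ± 0.07 (adjusted p = 4.87e-06). In H1299 it had 1799.0, 1942.1 and 2165.4 CPM with SAHA and 2060.7, 1400.0 and 2031.3 CPM with DMSO, where the second DMSO library was low and the groups overlapped (0.05 ± 0.15, adjusted p = 0.791; -0.13 without that library).

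At the lactate branch both subunit genes fell, while an export gene rose. LDHA, whose subunit favours pyruvate reduction, fell by 0.78 ± 0.14 in H1299 (adjusted p = 0.00125) and by 0.98 ± 0.14 in H1703 (adjusted p = 0.0004). LDHB, the heart-type subunit, had 865.8, 899.6 and 1041.1 CPM with SAHA and 1438.8, 1606.3 and 1441.3 CPM with DMSO in H1299, and 793.9, 964.8 and 818.5 CPM with SAHA and 1424.8, 1333.1 and 1333.5 CPM with DMSO in H1703. It fell by 0.73 ± 0.10 in H1299 (adjusted p = 0.000149) and by 0.65 ± 0.09 in H1703 (adjusted p = 0.000101).

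SLC16A3, which encodes the lactate exporter MCT4, had 273.6, 301.9 and 303.5 CPM with SAHA and 165.2, 209.4 and 168.8 CPM with DMSO in H1299, and 294.4, 318.1 and 273.1 CPM with SAHA and 70.7, 79.7 and 67.8 CPM with DMSO in H1703. It rose by 0.64 ± 0.10 in H1299 (adjusted p = 0.000566) and by 2.04 ± 0.09 in H1703 (adjusted p = 1.08e-07). With SAHA both lines reached a like CPM, 293.0 ± 17 in H1299 and 295.2 ± 23 in H1703 (SD, n = 3 each). The deposited FPKM (fragments scaled by gene length and library total) were less alike, at 18.3 ± 0.69 in H1299 and 15.1 ± 1.2 in H1703. A difference between the lines with SAHA was not tested. SLC16A1, the MCT1 gene, had a change of -0.21 ± 0.09 in H1299 (adjusted p = 0.0627) and rose by 0.37 ± 0.10 in H1703 (adjusted p = 0.00991).

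Among the genes that gate pyruvate oxidation, PDP1 and 3 of the 4 kinase genes rose in both lines. PDP1, a phosphatase gene that switches the complex on, had 471.0, 457.8 and 282.2 CPM with SAHA and 97.1, 99.9 and 93.6 CPM with DMSO in H1299, and 233.0, 218.5 and 262.7 CPM with SAHA and 22.5, 28.1 and 27.8 CPM with DMSO in H1703. It rose by 2.00 ± 0.20 in H1299 (adjusted p = 9.42e-05) and by 3.21 ± 0.12 in H1703 (adjusted p = 3.03e-08), though the third H1299 library with SAHA was lower than the other two. The other phosphatase gene, PDP2, is outside the set and did not pass in either line (-1.33 ± 0.67 in H1299, adjusted p = 0.141, and 0.55 ± 0.57 in H1703, adjusted p = 0.435). Of the 4 kinase genes that switch it off, 4 rose in H1299 and 3 in H1703.

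PDK4, the kinase gene induced by fasting in many tissues, had 3.29, 4.19 and 2.75 CPM with SAHA and 1.51, 1.06 and 1.64 CPM with DMSO in H1299 (1.22 ± 0.27, adjusted p = 0.00307). The H1703 libraries had 95.9, 97.0 and 111.3 CPM with SAHA and 64.4, 73.3 and 65.9 CPM with DMSO (0.60 ± 0.09, adjusted p = 0.000304). PDK2 had 49.3, 62.4 and 61.1 CPM with SAHA and 35.6, 32.3 and 32.4 CPM with DMSO in H1299 (0.73 ± 0.11, adjusted p = 0.000401), and 44.4, 41.5 and 49.1 CPM with SAHA and 22.9, 22.8 and 22.5 CPM with DMSO in H1703 (1.00 ± 0.10, adjusted p = 1.4e-05). Its exons overlap SAMD14 on the opposite strand, which averaged 9.10 CPM with SAHA and 0.719 CPM with DMSO in H1299. PDK1 rose by 0.52 ± 0.13 in H1299 (adjusted p = 0.00581) and by 0.59 ± 0.18 in H1703 (adjusted p = 0.0162). The H1703 call was lost without the third SAHA library (0.51, adjusted p = 0.0562) and without the third DMSO library (0.42, adjusted p = 0.0543). PDK3 rose by 0.88 ± 0.18 in H1299 (adjusted p = 0.00211) with 0.05 ± 0.12 in H1703 (adjusted p = 0.738).

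Both carrier subunits of pyruvate entry rose. MPC1 (chr6:166364919-166383013), a subunit whose expression is low in many tumours, had 27.8, 29.4 and 30.0 CPM with SAHA and 8.52, 8.63 and 8.83 CPM with DMSO in H1299, and 15.5, 17.2 and 17.1 CPM with SAHA and 7.15, 5.48 and 4.33 CPM with DMSO in H1703. The rise was 1.69 ± 0.11 in H1299 (adjusted p = 1.82e-06) and 1.57 ± 0.18 in H1703 (adjusted p = 4.16e-05). MPC2 had 99.1, 106.0 and 110.9 CPM with SAHA and 58.9, 56.7 and 62.5 CPM with DMSO in H1299 (0.77 ± 0.08, adjusted p = 4.73e-05), and 135.0, 148.4 and 131.7 CPM with SAHA and 88.7, 80.9 and 88.9 CPM with DMSO in H1703 (0.70 ± 0.08, adjusted p = 4.01e-05). Of the E1 subunits of pyruvate dehydrogenase, PDHA1 did not pass in either line (-0.08 ± 0.07 and -0.01 ± 0.07). PDHB fell by 0.80 ± 0.12 in H1703 (adjusted p = 0.000213), and by 0.26 ± 0.10 in H1299 (adjusted p = 0.0403), where the call was kept in 4 of 12 alternatives and lost with the replicate block (adjusted p = 0.07).

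**Figure D2:**
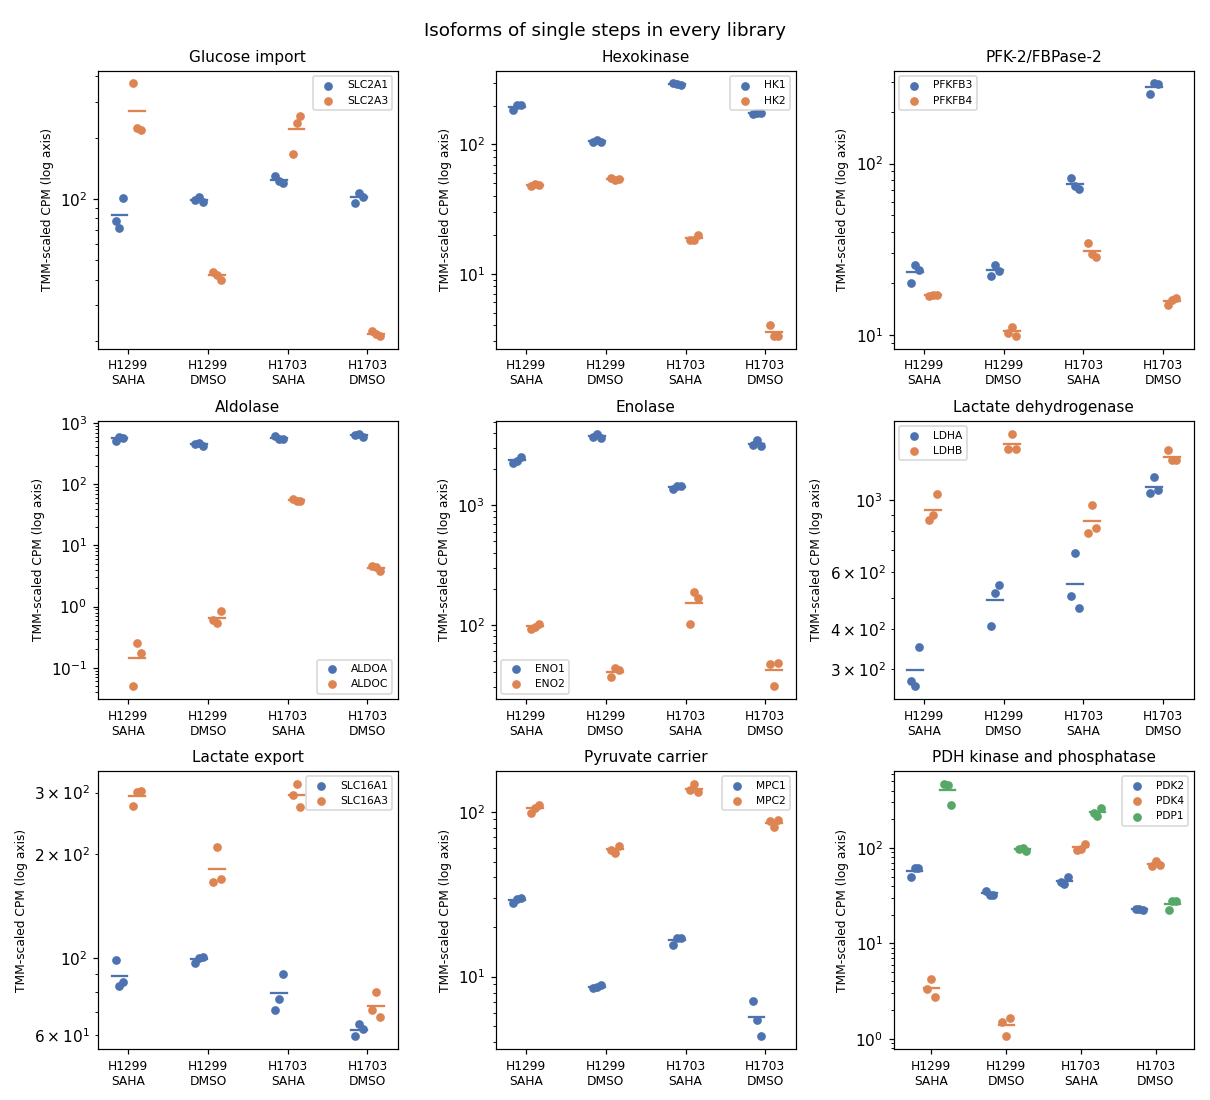
TMM-scaled CPM (log axis) in every library, by group, for isoforms or partner genes of 9 steps. Points are libraries and bars are group means, and a level of 0 is drawn at 0.05. SLC2A3 is higher with SAHA in both lines, and ALDOC is at 52.4 to 58.2 CPM in H1703 with SAHA and at most 4.60 CPM elsewhere.

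Within-step ratios were compared for 16 pairs as the SAHA minus DMSO difference of the log2 ratio of CPM, with a pseudocount of 0.5 CPM. Most pairs are isoforms, but MPC2 with MPC1 and PDHB with PDHA1 are partner subunits. An exact two-sided permutation test within both lines can reach at best p = 0.005, and 0.1 within a single line. The joint test takes the mean of the 2 lines' differences, so changes in opposite directions cancel in it. For 7 pairs every library moved apart in both lines and the adjusted p was 0.011, the smallest this design gave. These were GLUT3 over GLUT1, PFKL over PFKP, PFKFB4 over PFKFB3, ENO2 over ENO1, ENO3 over ENO1, MCT4 over MCT1 and MPC2 over MPC1. ENO2 over ENO1 was higher by 1.91 in H1299 and 3.04 in H1703, and MCT4 over MCT1 by 0.86 in H1299 and 1.68 in H1703. PFKFB4 over PFKFB3 was higher by 0.72 in H1299 and 2.82 in H1703. MPC2 over MPC1 was lower by -0.87 in H1299 and -0.82 in H1703, as MPC1 rose more than MPC2.

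PFKFB2 over PFKFB3 (adjusted p = 0.036, exact permutation test), PDHB over PDHA1 (0.03) and PDK1 over PDK2 (0.04) passed with smaller differences in H1299. Other pairs did not pass in the joint test. HK2 over HK1 went opposite ways, at -1.04 in H1299 and 1.51 in H1703. Within each line alone its exact permutation p was 0.1, the smallest possible, and the joint test cannot show changes that cancel. ALDOC over ALDOA was higher by 3.66 in H1703. In H1299 ALDOC had at most 15 counts in a library, so the size of its ratio there rests on the pseudocount and is not read. That H1299 value also enters the joint mean, so the joint result of this pair is not read either. LDHB over LDHA differed by 0.04 in H1299 and 0.34 in H1703 (exact permutation, adjusted p = 0.12), since both subunits fell.

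**Figure D3:**
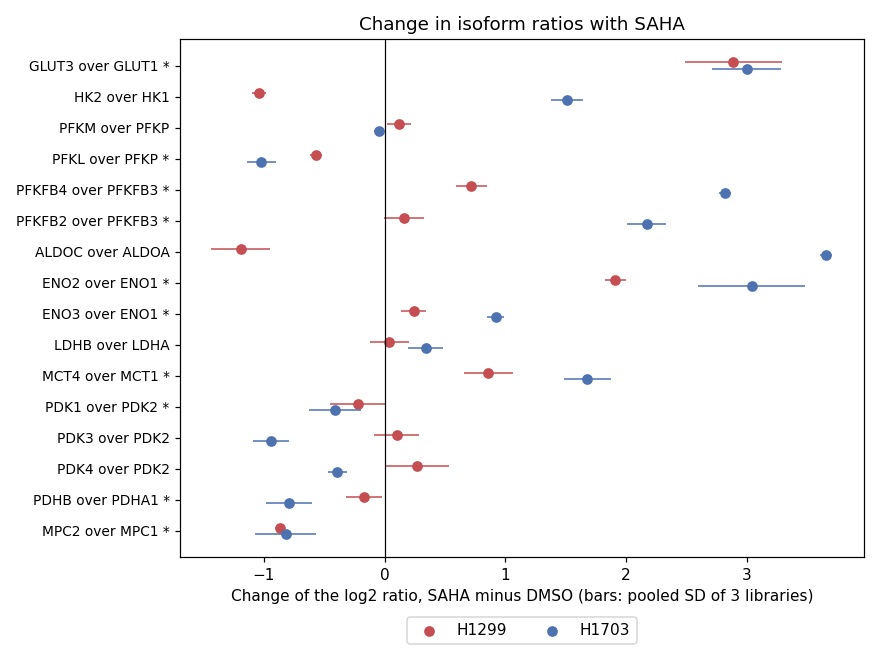
Change of the within-step log2 ratio, SAHA minus DMSO (x axis), for 16 pairs (y axis) in H1299 (red) and H1703 (blue). Bars give the pooled SD of 3 libraries per group. Asterisks mark pairs with an exact permutation adjusted p below 0.05; GLUT3 over GLUT1 lies at 2.89 and 3.0 and HK2 over HK1 lies on opposite sides of 0. The H1299 point of ALDOC over ALDOA rests on the pseudocount.

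Levels of different genes can only be compared per length, for which the deposited FPKM values (fragments scaled by gene length and library total) were used. The length they imply exceeds the genomic span of the gene for 5 of 36 members, among them GAPDH and LDHA, and is 0.785 to 8.83 times that of the GENCODE canonical transcript. Shares are therefore uncertain, and the share by CPM per kilobase of canonical transcript follows in parentheses. SLC2A3 made up 64.9 ± 8.9% of the 2 glucose transporters' FPKM with SAHA and 20.1 ± 0.69% with DMSO in H1299 (SD, n = 3 each; 73.2% and 27.3% by canonical length), and 50.8 ± 6.8% with SAHA and 11.2 ± 0.77% with DMSO in H1703 (60.5% and 15.9%).

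HK2 made up 26 ± 0.85% of hexokinase FPKM with SAHA and 42.1 ± 0.96% with DMSO in H1299 (13.7% and 24.7%), but 8.35 ± 0.48% with SAHA and 2.80 ± 0.34% with DMSO in H1703 (3.95% and 1.28%). ALDOC held 23.5 ± 0.048% of aldolase FPKM with SAHA and 2.15 ± 0.11% with DMSO in H1703 (8.87% and 0.694%), so ALDOA led on both scales. ENO2 held 2.23 ± 0.027% of enolase FPKM with SAHA and 0.599 ± 0.05% with DMSO in H1299 (3.06% and 0.828%), and 5.62 ± 1.5% with SAHA and 0.718 ± 0.2% with DMSO in H1703 (7.59% and 0.989%), so its rise left ENO1 the main enolase transcript. LDHA was the minor subunit on both scales in every group, at 7.96 ± 0.49% with SAHA and 8.21 ± 1.1% with DMSO in H1299 (15.6% and 16.0%) and 14.8 ± 1.4% with SAHA and 18.0 ± 1.3% with DMSO in H1703 (27.0% and 31.9%). PFKFB3 held 55.1 ± 1.1% of the PFKFB genes' FPKM with SAHA and 88.1 ± 0.62% with DMSO in H1703 (56.8% and 89.0%).

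The difference of the SAHA effect between the lines, H1703 minus H1299, was tested as an interaction over all 12 libraries. It was positive for 10 and negative for 7 of 36 members, and 19 did not pass, so 47.2% were called, against 34.9% of all genes (13.7% positive and 21.2% negative). The median difference was 0.13 over the members and -0.09 over all genes. The split by sign depends on scaling, as 39.3% of all calls were positive here. Without mitochondrially encoded genes 47.0% were positive and the all-gene median was -0.003. Differences of 2-fold or more were called for 4 positive and 2 negative of the 36 members, a share near the 18.8% of all genes. Those past 2-fold were HK2 (2.56 ± 0.14, adjusted p = 1.13e-08), PFKFB3 (-1.85 ± 0.15, adjusted p = 3.94e-07), SLC16A3 (1.33 ± 0.14, adjusted p = 8.41e-06), TIGAR (-1.19 ± 0.38, adjusted p = 0.0322, a call kept in 9 of 17 alternatives) and PDP1 (1.13 ± 0.23, adjusted p = 0.00246). ALDOC was the other, with 5.82 ± 0.50 (adjusted p = 7.78e-07), a size that rests on under 1 CPM in every H1299 library. SLC2A3 (0.66 ± 0.29, adjusted p = 0.104), ENO2 (0.62 ± 0.31, adjusted p = 0.151) and MPC1 (-0.20 ± 0.21, adjusted p = 0.513) did not pass. Without the first H1703 SAHA library, SLC2A3 passed at 0.82 (adjusted p = 0.0283) and ENO2 at 0.85 (adjusted p = 0.00963), and without the first H1299 SAHA library SLC2A3 passed at 0.95 (adjusted p = 0.002).

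**Figure D4:**
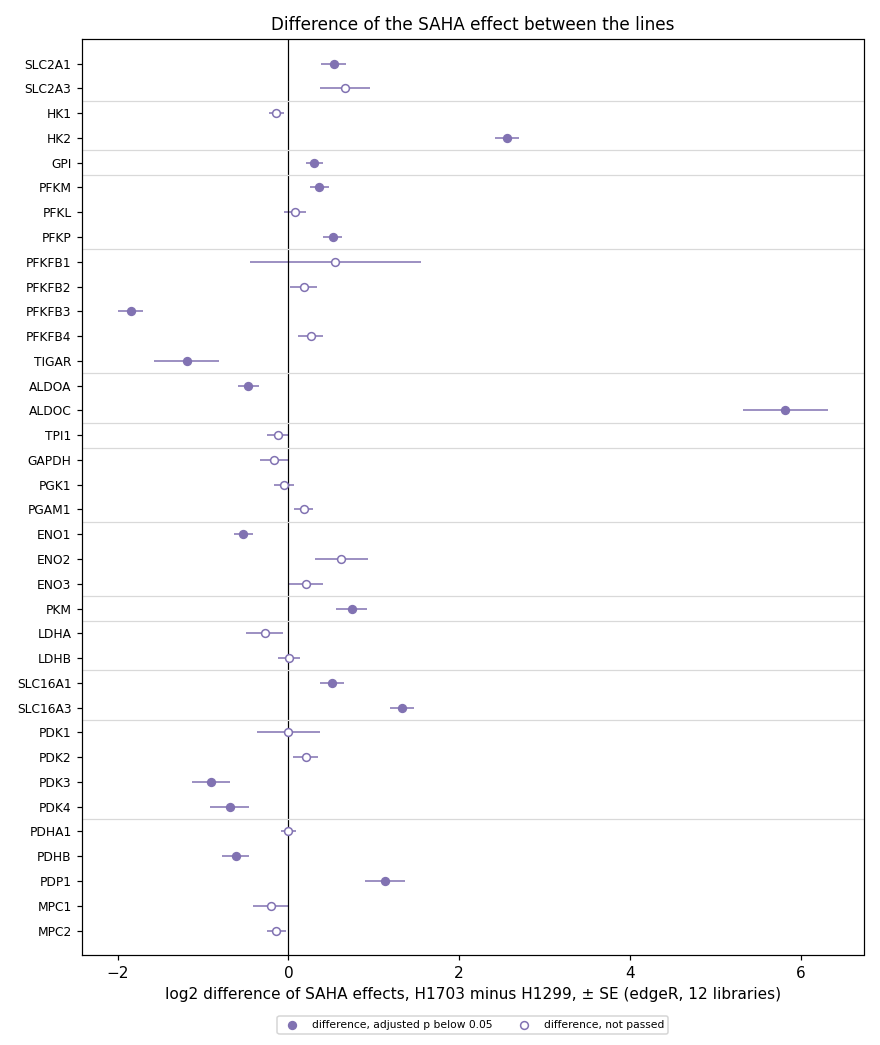
Difference of the SAHA effect, H1703 minus H1299, on the log2 scale with its standard error (x axis) for each member (y axis, pathway order), from 1 edgeR fit over 12 libraries. Filled points passed; HK2 at 2.56 and ALDOC at 5.82 lie far right, PFKFB3 at -1.85 far left. The size of the ALDOC value rests on under 1 CPM in every H1299 library.

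Under DMSO members already differed between the lines, at a share of calls near that of all genes. Of 36 members, 15 were higher and 11 lower in H1703 than in H1299, 72.2% called against 66.5% of all genes (34.3% higher and 32.2% lower). Differences of 2-fold or more were called for 7 higher and 3 lower of the 36 members, a smaller share than the 37.4% of all genes. PDK4 was higher in H1703 by 5.58 ± 0.17 (67.9 ± 4.8 CPM in H1703 and 1.41 ± 0.30 CPM in H1299, adjusted p = 2.38e-12), as was PFKFB3 by 3.55 ± 0.11 (279.3 ± 21 and 23.8 ± 1.7 CPM, adjusted p = 2.96e-12). HK2 was lower in H1703 by -3.93 ± 0.11 (3.55 ± 0.41 CPM in H1703 and 54.3 ± 0.94 CPM in H1299, adjusted p = 6.77e-13). PDP1 (-1.89 ± 0.17) and SLC16A3 (-1.32 ± 0.10) were lower in H1703, and PKM (1.18 ± 0.13), LDHA (1.16 ± 0.16) and PDK3 (1.45 ± 0.16) were higher. ENO1 was lower in H1703 by -0.21 ± 0.08 (adjusted p = 0.0254), a call lost in 4 of the 6 fits without 1 DMSO library.

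**Figure D5:**
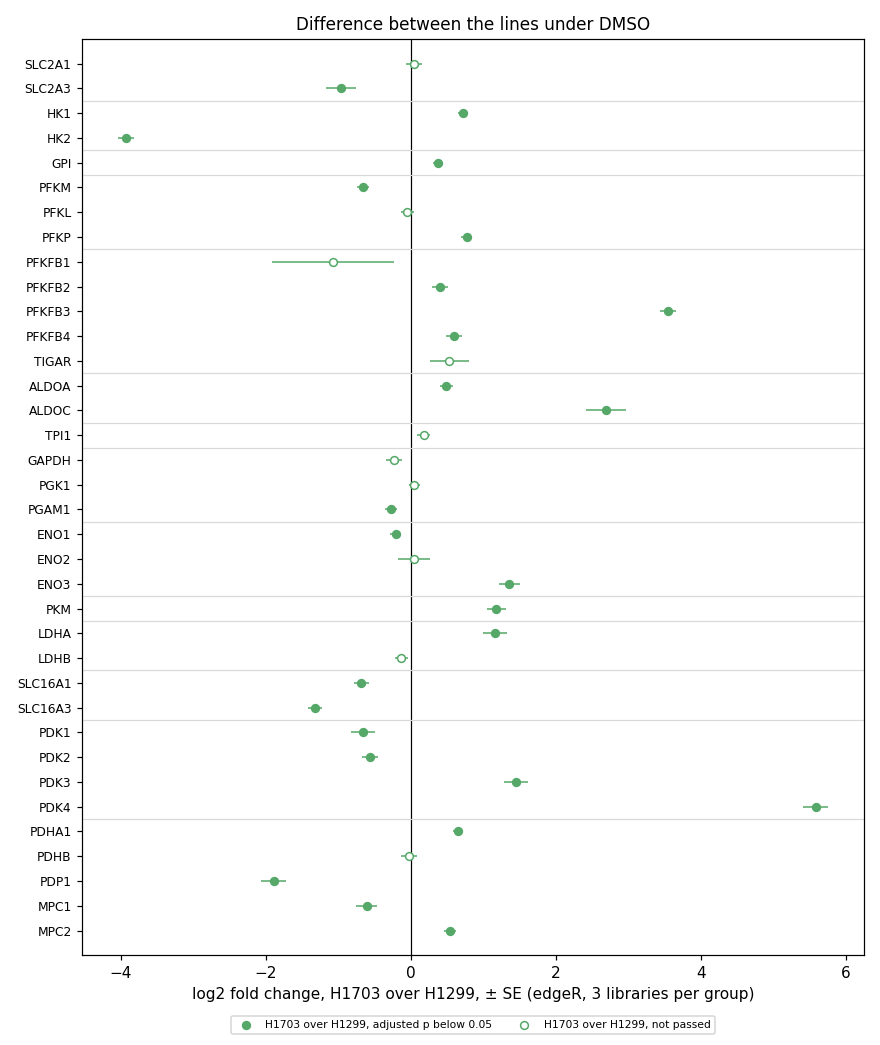
Log2 difference between H1703 and H1299 under DMSO with its standard error (x axis) for each member (y axis, pathway order), 3 libraries per line. Filled points passed; PDK4 at 5.58, PFKFB3 at 3.55 and HK2 at -3.93 lie farthest from 0.

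Genes outside the set gave the surrounding pathways, listed here by calls adjusted over all genes tested. These counts stand beside the 63.8% of all genes called in H1299 and the 67.4% called in H1703. Of 15 tested other isozymes and carriers, 12 rose and 2 fell in H1299, and 9 rose and 4 fell in H1703 (medians 1.54 and 0.85, beside 0.02 over all genes). By fitted change the largest in H1299 was PGK2, with 0.964 ± 0.18 CPM with SAHA and every DMSO library at 0. The following were chosen after their values were seen. SLC2A4, the insulin-regulated transporter GLUT4, had 8.76 ± 0.97 CPM with SAHA and 0.886 ± 0.45 CPM with DMSO in H1299 (3.25 ± 0.31) and 17.7 ± 2.2 CPM with SAHA and 0.650 ± 0.29 CPM with DMSO in H1703 (4.76 ± 0.27). BSG, the chaperone of the lactate transporters, rose by 0.39 ± 0.09 in H1299 (adjusted p = 0.00497) and by 1.23 ± 0.08 in H1703 (adjusted p = 8.92e-07). HKDC1, which encodes a hexokinase-domain protein, had 80.3 ± 12 CPM with SAHA and 142 ± 1.7 CPM with DMSO in H1703 (-0.80 ± 0.11, adjusted p = 0.000118), and 1.71 ± 0.4 CPM with SAHA and 0.409 ± 0.25 CPM with DMSO in H1299 (1.98 ± 0.46, adjusted p = 0.00408).

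Of 7 tested pentose phosphate genes, 3 rose and 2 fell in H1299, whereas in H1703 5 fell and 2, PGLS and TALDO1, did not pass. PGD, an enzyme of the oxidative branch, fell by 0.64 ± 0.13 in H1299 (adjusted p = 0.00178) and by 1.29 ± 0.10 in H1703 (adjusted p = 2.23e-06). Of 17 tricarboxylic acid cycle genes, 2 rose, 5 fell and 10 did not pass in H1299, and 10 rose and 5 fell in H1703. SUCLG2, a succinyl-CoA ligase subunit, changed most in both lines (-1.41 ± 0.11 in H1299 and -1.42 ± 0.09 in H1703). Of the 6 other genes of the pyruvate dehydrogenase step, 1 rose and 3 fell in H1299, and 1 rose and 2 fell in H1703. PC, pyruvate carboxylase, rose by 1.02 ± 0.12 in H1299 (adjusted p = 6.87e-05), and PDHX, a structural subunit, fell by 1.01 ± 0.09 in H1703 (adjusted p = 9.25e-06).

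Of gluconeogenesis genes, PCK2, the mitochondrial phosphoenolpyruvate carboxykinase gene, rose in H1299 (0.81 ± 0.16, adjusted p = 0.00179) as 1 of 2 tested. In H1703 1 of 3 tested rose, PCK1 with 1.70 ± 0.78 CPM with SAHA and 0.115 ± 0.2 CPM with DMSO, and 1 fell, PCK2 (-0.40 ± 0.12, adjusted p = 0.0138).

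Of hypoxia targets that are not glycolytic, 6 of 10 tested rose and 2 fell in H1299, and 4 of 12 rose and 1 fell in H1703. NDRG1, a stress-responsive gene, had the largest change in each line (4.42 ± 0.33 in H1299 and 2.44 ± 0.08 in H1703). HIF1A, the hypoxia-inducible factor subunit gene, had 57.2 ± 12 CPM with SAHA and 139 ± 12 CPM with DMSO in H1299 (-1.34 ± 0.15, adjusted p = 7.28e-05), and 854 ± 22 CPM with SAHA and 761 ± 12 CPM with DMSO in H1703 (0.18 ± 0.06, adjusted p = 0.0279). EPAS1, its paralogue, rose by 2.05 ± 0.15 in H1299 (adjusted p = 3.53e-06) and by 1.70 ± 0.07 in H1703 (adjusted p = 8.71e-08).

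Of the fixed list of glycolysis regulators, which includes HIF1A and EPAS1, 5 of 11 tested rose and 2 fell in H1299, and 6 of 12 rose and 4 fell in H1703. ARRDC4, an arrestin-domain gene, rose by 4.46 ± 0.43 in H1299 (adjusted p = 3.23e-05) and by 4.0 ± 0.11 in H1703 (adjusted p = 1.04e-08). TXNIP, its paralogue that restrains glucose uptake, had 316 ± 16 CPM with SAHA and 4.19 ± 2.0 CPM with DMSO in H1703 (6.24 ± 0.34, adjusted p = 1.79e-05), and was too low to test in H1299. MLXIPL, the ChREBP gene, rose by 2.84 ± 0.26 in H1299 (adjusted p = 1.5e-05) and by 1.24 ± 0.22 in H1703 (adjusted p = 0.000649). PRKAA1, a catalytic AMPK subunit gene, fell by 0.77 ± 0.12 in H1299 (adjusted p = 0.000329) and by 0.41 ± 0.10 in H1703 (adjusted p = 0.00458).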

How the data were processed

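Libraries were poly(A) RNA, paired-end. The labels name both a directional and an un-stranded preparation, so reads of genes that overlap on opposite strands cannot be assigned with certainty. Besides ENO3 and PDK2, such exon overlaps include SLC16A3 with CSNK1D, MPC2 with DCAF6, PFKFB2 with YOD1 and PFKM with SENP1. In H1703 with DMSO, CSNK1D averaged 176.5 CPM beside 72.8 CPM for SLC16A3. In H1299 with DMSO, DCAF6 averaged 86.1 CPM beside 59.4 CPM for MPC2. Per the submitters' processing notes, the build was GRCh38 and the tools included HISAT2 2.1.0 with StringTie 1.3.3b, fastp, edgeR 3.30.3 and FastQC 0.11.9, with no role given for any. The authors deposited 1 table per line with raw counts per gene and library, per the file headers. The deposited FPKM values equal count over total and a length per gene, within 1% for 100.0% of 304680 values. The control columns were matched to DMSO, the only other group of each line.

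The count test was edgeR 4.0.16 under R 4.3.3 (robust quasi-likelihood fit, TMM scaling, filterByExpr with minimum count 10 and total 15), within each line, and over 12 libraries for the interaction and the DMSO difference. SE is log2 fold change over the square root of F. The code was tested on simulated data. CPM are TMM-scaled over 12 libraries. Members, lists and pairs were chosen with earlier results of these data known. In every sample, values are given for members with a called change or interaction of 2-fold or more and the most abundant member of each step; outside the set, for the called member with the largest change per list. Some genes this rule names are not reported here. Replicates differed by more than sampling noise, with chi-square over degrees of freedom of 10.9 to 24.7. The labels give the replicate number as a batch, so a replicate block was run; same-numbered libraries' deviations correlated between -0.031 and 0.033. Alternatives were RLE size factors, no low-count filter, DESeq2 1.42.0, mitochondrially encoded genes left out, the block, 1 fit over 12 libraries, other pseudocounts, FPKM ratios, each library left out and, added after seeing the data, canonical lengths (GENCODE release 44). SLC2A3, PFKFB2, SLC16A1 and PDP1 had no entry matched for promoters. The GC box search was added after seeing the data.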

Additional observations from a re-analysis of the deposited data

Results flagged for a closer look

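The SAHA effect on 17 members differed between the lines in the interaction test (edgeR, adjusted p below 0.05), given here as H1703 minus H1299 on the log2 scale. Positive differences were found for GPI (0.30), PFKM (0.36), SLC16A1 (0.51), PFKP (0.52), SLC2A1 (0.53), PKM (0.74), PDP1 (1.13), SLC16A3 (1.33), HK2 (2.56) and ALDOC (5.82). ALDOC had at most 0.849 CPM in any H1299 library and too few counts to be tested there. It passed the 12-library filter through H1703, and the size of its difference is not read. Negative differences were found for PFKFB3 (-1.85), TIGAR (-1.19), PDK3 (-0.91), PDK4 (-0.69), PDHB (-0.62), ENO1 (-0.53) and ALDOA (-0.47). GPI, PFKM, TIGAR and PDK4 lost this call when some single libraries were left out, with adjusted p between 0.0502 and 0.104 in those fits. PDK4 also lost it with DESeq2 (adjusted p = 0.0515) and without mitochondrially encoded genes (0.0562), and TIGAR without the low-count filter (0.0977). For ENO1 and PDHB both lines fell and H1703 fell more, and for SLC16A3 and PDP1 both rose and H1703 rose more.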

How the results depend on the processing

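Counts of members called stayed within 1.5 times under every alternative run. Fitted values whose sign changed under a setting that kept all libraries were near 0 and not called in either setting. With RLE size factors these were PDHA1 in H1703 (0.01) and the interactions of PGK1 (0.02) and PDK1 (0.07). With DESeq2 they were the interactions of PGK1 (0.02) and PDK1 (0.07) and the DMSO differences of SLC2A1 and ENO2 (0.00 each). Without mitochondrially encoded genes they were the interactions of PGK1 (0.04) and PDK1 (0.09) and the DMSO differences of SLC2A1 (-0.04), PGK1 (-0.02) and ENO2 (-0.03), and without the filter the PDK1 interaction (0.00).

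Leaving out 1 library changed the sign of PFKFB3 (-0.17 to 0.01), PFKM (-0.05 to 0.03) and PKM (-0.13 to 0.12) in H1299, and of PDK3 (-0.02 to 0.12) and PDHA1 (-0.04 to 0.00) in H1703. It did so for the interactions of LDHB (-0.08 to 0.09), PDK1 (-0.16 to 0.14), PDHA1 (-0.03 to 0.03), PGK1 (-0.11 to 0.03), PFKFB1 (-0.29 to 1.48), PFKL (0.00 to 0.15) and MPC1 (-0.35 to 0.01), and for the DMSO differences of ENO2 (-0.07 to 0.22), PDHB (-0.14 to 0.06) and PFKL (-0.11 to 0.02).

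With a pseudocount of 0.1 CPM, PDK1 over PDK2 was -0.30 and no longer passed (exact permutation, adjusted p = 0.056), and PDK4 over PDK2 was 0.02. The replicate block changed calls of SLC2A1, HK2, ENO3 and PDHB in H1299 and PGK1 in H1703, and no other member's call. On canonical lengths the shares moved, in the order H1299 SAHA, H1299 DMSO, H1703 SAHA, H1703 DMSO. PFKP was 60.7, 57.5, 80.9 and 74.2%, LDHA 15.6, 16.0, 27.0 and 31.9%, SLC16A3 82.6, 72.3, 84.3 and 62.8%, and ENO2 3.06, 0.828, 7.59 and 0.989%. HK2 was 13.7, 24.7, 3.95 and 1.28%. Without H1299 SAHA, which did not move by more than its spread, PFKFB3 was 49.1, 56.8 and 89.0%, PDK4 2.58, 52.8 and 51.1%, SLC2A3 27.3, 60.5 and 15.9% and ALDOC 0.153, 8.87 and 0.694%. The cause of these changes was not tested.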
